A study of Mus musculus with 6 samples.

Results

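Schwann cells ensheath the axons of peripheral nerves, and 7 mouse genes used as their markers, Sox10, Mbp, S100b, Ngfr, Cdh19, Scn7a and Gfra3, were followed in tumours grown in mice. They were taken by gene name, without regard to their values, from the 55536 named rows of a mouse count table, and each name had 1 row. Of the 7, only Scn7a, Mbp, Ngfr and S100b passed the filter on low counts that left 14459 mouse genes to test. Sox10, Cdh19 and Gfra3 did not pass, and they are given by their counts.

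The tumours grew under the skin of male nude mice, which lack a thymus, from injected DU145 cells, a human prostate cancer line. RNA was sequenced from 3 control tumours (libraries NC10, NC4 and NC9) and 3 tumours of mice given Zelnorm by mouth each day (MBZ_254, MBZ_257 and MBZ_259). Titles of the treated samples carry MBZ where the treatment label says Zelnorm, and the sources used here do not give the dose, its duration, the age of the mice or what control mice received. Zelnorm is a trade name of tegaserod, an agonist of serotonin receptors. No label ties a tumour to an animal, and p-values here measure only the spread between these samples, which may be technical. Any nerve in the tumours is that of the host, and its RNA shares each library with that of the human cells. The mouse table held 5798742 to 9185279 counts per library, and the human table between 24495364 and 39102850. In these bulk samples, fewer cells of a type and less RNA per cell cannot be told apart.

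A peripheral nerve holds myelinating Schwann cells, each wrapped around 1 axon, and non-myelinating (Remak) Schwann cells that bundle thin axons. Sox10 is the transcription factor that sets and keeps Schwann cell identity and switches on myelin genes, Mbp among them. Mbp encodes myelin basic protein, which holds the layers of the myelin sheath together, and the same gene also makes shorter transcripts in blood cells. S100b encodes a calcium-binding protein of Schwann cells that fat cells make too. Ngfr, the low-affinity neurotrophin receptor, Cdh19, a cadherin, Scn7a, a sodium channel-like protein, and Gfra3, the receptor subunit for artemin, are used to mark immature or non-myelinating Schwann cells. Several of these genes are not restricted to nerve.

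Upstream sequences of 3 of the 7 genes were at hand (RefSeq, GRCm38.p6), and they are shown because Sox10 acts on such regions and the transcripts of all 3 could be measured. Each stretch runs 5′ to 3′ on the gene's strand, from 250 to 51 bases before the start annotated by RefSeq. That start differs from the gene bounds given below, which are those of GENCODE. Capitals mark the core letters bound by SOX proteins, searched on both strands as ACAAAG, then as ACAATG, then as TCAAAG and last as TCAATG, with overlapping matches allowed.
Scn7a, chr2:66784961-66785160, minus strand: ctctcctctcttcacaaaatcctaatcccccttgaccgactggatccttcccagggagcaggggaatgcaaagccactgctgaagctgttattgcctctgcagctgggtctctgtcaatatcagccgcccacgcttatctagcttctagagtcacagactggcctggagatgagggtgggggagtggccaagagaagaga
Ngfr, chr11:95587749-95587948, minus strand: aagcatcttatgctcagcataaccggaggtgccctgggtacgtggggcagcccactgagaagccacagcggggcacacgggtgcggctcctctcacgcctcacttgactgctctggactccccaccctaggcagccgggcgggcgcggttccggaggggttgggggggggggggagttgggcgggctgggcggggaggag
S100b, chr10:76253586-76253785, plus strand: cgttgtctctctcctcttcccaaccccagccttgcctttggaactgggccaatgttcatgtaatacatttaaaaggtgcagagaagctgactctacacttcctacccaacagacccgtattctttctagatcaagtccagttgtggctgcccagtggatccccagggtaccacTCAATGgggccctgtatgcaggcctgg
The S100b window held 1 match and the other two none, where 34.1% of 32851 mouse windows of the same 200 bases held at least 1. G and C made up 70.0% of the Ngfr window, against 54.5% for Scn7a, 52.0% for S100b and a median of 51.5% over all windows.

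Transcripts of the identity factor Sox10 (ENSMUSG00000033006, chromosome 15 from 79154908 to 79165240, GRCm38) were near the limit of detection in every tumour. Its counts were 2, 3 and 5 in NC10, NC4 and NC9, and 4, 3 and 2 in MBZ_254, MBZ_257 and MBZ_259. The groups overlapped, with 10 counts in all in the controls (exact 95% Poisson interval 4.8 to 18.4, covering counting error only) and 9 in the Zelnorm tumours (4.12 to 17.1). On the CPM scale (the count relative to the scaled total of the mouse library), Sox10 was at 0.418 ± 0.114 over the controls and 0.431 ± 0.177 over the Zelnorm tumours (SD, n = 3 each; exact two-sided permutation p = 0.9, smallest possible 0.1). A difference between the groups was not detectable at this depth.

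Cdh19 (ENSMUSG00000047216, chromosome 1 from 110888326 to 110977584) was as scarce. It had 7, 3 and 5 counts in the controls, in the order above, and 3, 1 and 11 in the Zelnorm tumours, 15 in each group. The highest and the lowest library were both Zelnorm tumours, MBZ_259 and MBZ_257. Its controls averaged 0.685 ± 0.387 CPM and its Zelnorm tumours 0.608 ± 0.571 CPM (SD, n = 3 each; exact two-sided permutation p = 0.7). Gfra3 had 0 counts in the 3 controls and in MBZ_254, and 1 count in each of MBZ_257 and MBZ_259. A floor of 3 counts corresponds to 0.326 to 0.555 CPM per library, so Gfra3 lay under the floor throughout and is given no fold. Of its partners, Ret, the signalling subunit of these receptors, had 194 counts over the 6 libraries, and the ligand Artn 30, both named after their values were seen.

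Scn7a was by far the most abundant of the 7 transcripts. Its level (ENSMUSG00000034810, chromosome 2 from 66673425 to 66784914) was 126, 113 and 128 CPM in NC10, NC4 and NC9, and 120, 51.6 and 84.3 CPM in MBZ_254, MBZ_257 and MBZ_259. The controls lay close together, MBZ_254 lay among them, and the other two Zelnorm tumours lay below all 3 controls, so that the groups overlapped. Controls averaged 122 ± 8.38 CPM and Zelnorm tumours 85.2 ± 34.1 CPM (SD, n = 3 each). The log2 fold change of -0.52 (SE 0.28, 95% interval -1.17 to 0.13) did not pass edgeR's quasi-likelihood test (adjusted p = 1.00, unadjusted p = 0.101). It was -0.25 without MBZ_257 and -0.85 without MBZ_254 (edgeR adjusted p = 0.75).

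Mbp (ENSMUSG00000041607, chromosome 18) was the next in level. It stood at 21.2, 26.2 and 16.3 CPM in the controls and at 23.2, 12.6 and 24.9 CPM in the Zelnorm tumours. The highest value was in the control NC4 and the lowest in MBZ_257, and the ranges overlapped. Its means were 21.2 ± 4.95 and 20.2 ± 6.69 CPM (SD, n = 3 each), a log2 fold change of -0.06 (SE 0.29, 95% interval -0.73 to 0.61; edgeR adjusted p = 1.00). The sign turned without NC4 (0.12) or without MBZ_257 (0.20).

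Ngfr (ENSMUSG00000000120, chromosome 11 from 95568818 to 95587735) had 11, 15 and 8 counts in the controls and 20, 3 and 4 in the Zelnorm tumours. MBZ_254 was the highest of the 6 libraries and the other Zelnorm tumours the lowest. The log2 fold change was -0.32 (SE 0.72, 95% interval -1.98 to 1.34; edgeR adjusted p = 1.00). Without MBZ_254 it was -1.58 (edgeR adjusted p = 0.75), and without MBZ_259 it was 0.09.

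S100b (ENSMUSG00000033208, chromosome 10 from 76253853 to 76261159) had 11, 5 and 14 counts in the controls and 7, 6 and 16 in the Zelnorm tumours. Its log2 fold change was -0.01 (SE 0.55, 95% interval -1.28 to 1.25; edgeR adjusted p = 1.00). S100b and Cdh19 shared the order of their 3 highest libraries, MBZ_259, NC10 and NC9, in CPM. The end of S100b overlaps Dip2a on the opposite strand, and no source used here says whether counting used strand, so its counts are uncertain. In the control NC4, where the summed level of 17 adipocyte genes was highest (1386 CPM, against 338 to 905 in the other libraries), S100b was at its lowest, 0.648 CPM from 5 counts. NC9, with the second highest adipocyte sum, had S100b at 1.52 CPM, and the part of adipocytes in the S100b values was not tested.

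**Figure D1:**
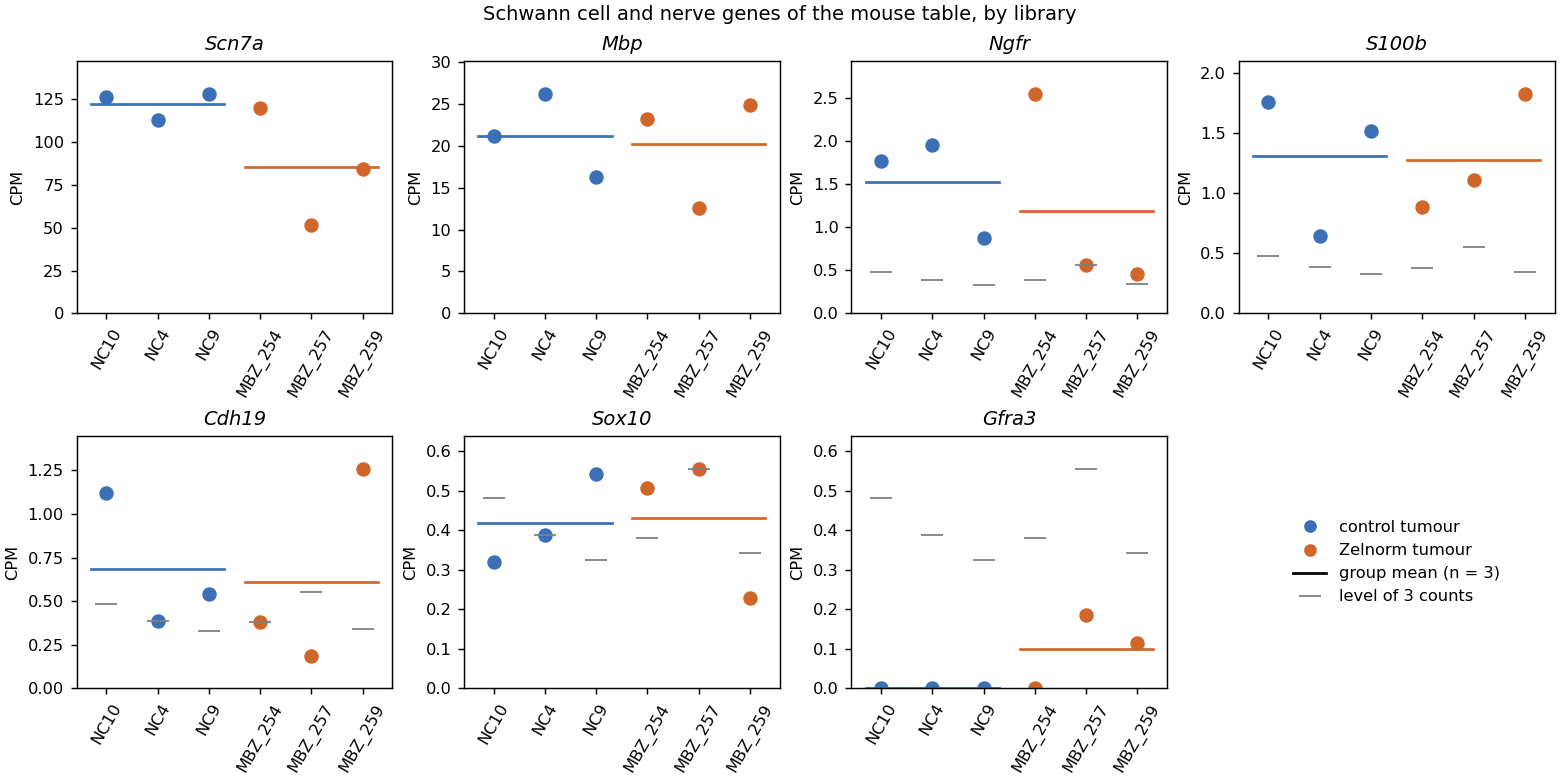
CPM of the 7 genes (vertical axes, each from 0) in each of the 6 libraries, with lines at the group means and grey bars, for the scarce genes, at the level that 3 counts correspond to. Scn7a lies at 51.6 to 128 CPM and Mbp at 12.6 to 26.2 CPM, while Sox10 and Gfra3 lie around or under the grey bars.

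Per length of exon the order of levels was Scn7a, Mbp, S100b, Ngfr, Cdh19, Sox10 and Gfra3. Mean levels over the 6 libraries were 14.2 CPM per kilobase for Scn7a, 2.45 for Mbp, 0.872 for S100b, 0.393 for Ngfr, 0.151 for Cdh19, 0.139 for Sox10 and 0.025 for Gfra3. Scn7a was the highest per kilobase in each library, at 7.04 to 17.5, and Mbp the second, at 1.49 to 3.09. Among the rest the ranges of neighbours in the order overlapped, S100b at 0.437 to 1.23 with Ngfr at 0.133 to 0.737, and Cdh19 at 0.043 to 0.294 with Sox10 at 0.075 to 0.182. Scn7a thus stood 102 times above Sox10 and 93.7 times above Cdh19 per kilobase, and the 7 genes did not share 1 order of libraries. Sox10, the gene that defines the Schwann cell lineage, held 19 mouse counts in all 6 libraries together, so the label of a Schwann cell set rests on few reads of its defining gene.

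The human table held reads for the same symbols. SOX10 had 29 human counts over the 6 libraries against 19 for mouse Sox10, NGFR 75 against 61, and GFRA3 13 against 2. MBP had 5824 against 953, 6.11 times the mouse count. For Scn7a the human table held 51 counts against 4797 in the mouse table, for S100b 4 against 59, and for Cdh19 0 against 30. The sources used here do not say how reads were divided between the species. The part of reads from human cells in the mouse counts of Sox10, Ngfr, Gfra3 and Mbp was not tested. Mouse Mbp was lowest in MBZ_257, at 68 counts, where human MBP stood at 1182 counts, the second highest of the 6 libraries. These counts are not scaled to depth. NC9, with the highest human MBP count of 1306, held 39102850 human counts in all, against 32598390 in MBZ_257.

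**Figure D2:**
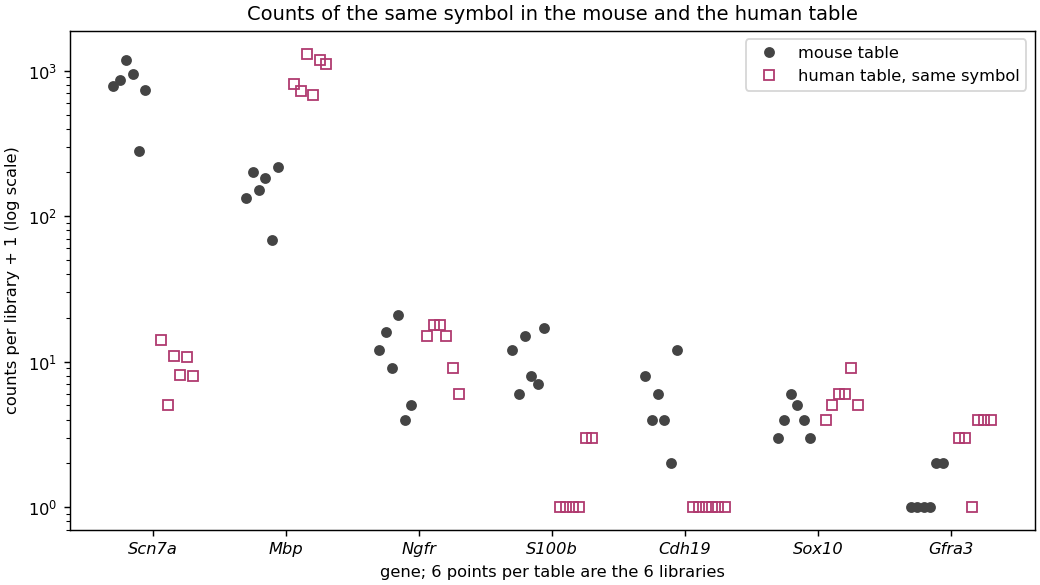
Counts per library plus 1 on a log scale (vertical axis) for each of the 7 symbols, filled circles for the mouse table and open squares for the human table. Human MBP counts of 681 to 1306 lie above mouse Mbp counts of 68 to 218, while Scn7a, S100b and Cdh19 have more mouse than human counts.

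None of the 4 tested genes was called, and of all 14459 tested mouse genes edgeR called 0%. At an unadjusted p under 0.05 there were 253 tested genes (1.75%), none of the 4 among them. DESeq2 called 6 genes, limma-voom 0 and edgeR without the count filter 2, again none of the 4. Groups that did not overlap were found in 0 of the 4 genes and in 5.52% of all tested genes. All 4 log2 fold changes lay below 0, from -0.01 to -0.52, beside a median of 0.02 over all tested genes, of which 6661 of 14459 lay below 0. The shared sign was lost under 7 of 12 alternatives, where 1 or 2 of the 4 genes lay above 0: S100b under 5, Mbp under 2 and Ngfr under 1. The 4 do not stand for all 7, since the scarcer genes could not be tested.

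Several myelin genes varied widely between tumours of the same group. The summed level of the myelin list was 217, 291 and 171 CPM in NC10, NC4 and NC9, and 249, 158 and 213 CPM in MBZ_254, MBZ_257 and MBZ_259. By this sum 1 tumour was low within each group, NC9 among the controls and MBZ_257 among the Zelnorm tumours, and the groups overlapped. These were also the lowest libraries for Prx, Pmp22 and Mbp. Prx, a scaffold protein of myelinating Schwann cells named after its values were seen, was at 4.02 CPM in NC9 and 1.85 CPM in MBZ_257, and at 5.77 to 8.30 CPM elsewhere. Pmp22, a myelin protein that many other cells make, was at 71.0 and 70.1 CPM, and at 88.7 to 132 CPM elsewhere. With a mean of 94.3 CPM, Pmp22 was the largest part of the summed level. Other genes of the list did not share the low library. Mag (4.44 CPM), Gjb1 (4.255 CPM), Ugt8a and Mpp7 (the latter pair named after their values were seen) were highest in MBZ_257. In all, NC9 and MBZ_257 were the lowest libraries of 5 of the 14 tested genes of the myelin list (35.7%) and of 11.2% of all tested genes. This pair was picked from the myelin genes themselves, so the shares are a description and no test. Scn7a did not share this order, since NC9 held its highest level, 128 CPM. Cnp, a myelin enzyme with 19592 counts in the human table against 1263 in the mouse table, ranged from 21.8 to 31.5 CPM.

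The myelin list of 20 genes, which includes Mbp, had 14 tested members, 5 higher and 9 lower in Zelnorm, with 0 called. Their median was -0.06 on the log2 scale, beside 0.02 for all tested genes, and the number lower was 4 without NC4 and 5 without MBZ_257. Mag, an adhesion protein of the inner myelin layer, differed by 0.31 (SE 0.37) on the log2 scale. Gjb1, a gap junction protein of Schwann cells, differed by 0.82 (SE 0.62) and Nfasc, an adhesion protein at nodes of Ranvier, by -0.34 (SE 0.41). The 6 members under the filter had 12 to 26 counts over the 6 libraries, and 5 of them, among these Mal and Cldn19, had 0 counts in MBZ_257. That library had the smallest mouse total (5798742 counts), and the part of depth in these zeros was not tested. NC10, with the next smallest total (6135439 counts), held 11 counts of Pllp and 7 of Cldn19, but 2 of Mal. Pllp also had 0 counts in NC4, Ncmap in NC10 and Gjc3 in MBZ_259.

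No gene of the non-myelinating Schwann cell list was called. The list's summed level was 347, 431 and 357 CPM in NC10, NC4 and NC9, and 347, 185 and 316 CPM in MBZ_254, MBZ_257 and MBZ_259. MBZ_257 stood apart as low, and MBZ_254 lay level with NC10. Of the 20 listed, 13 were tested and all 13 had a log2 fold change below 0, as had 6661 of the 14459 tested genes. Their median was -0.32, and that of the 10 that are not among the 7 genes was -0.35. Without MBZ_257 the number lower was 9 and the median -0.02. Chl1, an adhesion molecule of the L1 family, had the smallest p: 41.9, 61.4 and 48.9 CPM in the controls, and 41.4, 32.0 and 32.7 CPM in the Zelnorm tumours. Of the 13, Chl1 alone had groups that did not overlap, as had 5.52% of all tested genes, but MBZ_254 lay just under NC10. The log2 fold change of Chl1 was -0.52 (SE 0.19; edgeR adjusted p = 1.00, unadjusted p = 0.0273).

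Cadm3, an adhesion molecule of nerve, differed by -1.40 (SE 0.67) on the log2 scale. The control NC4 stood apart with 72.8 CPM of it, where NC10 had 16.8 and NC9 had 19.4. Zelnorm tumours had 14.2 (MBZ_254), 4.81 (MBZ_257) and 21.6 CPM (MBZ_259), so that MBZ_259 lay above 2 of the 3 controls. Col28a1, a collagen of nerve, averaged 11.6 ± 4.23 CPM over the controls and 6.61 ± 4.08 CPM over the Zelnorm tumours (SD, n = 3 each), with more counts in the human table (1801 against 431). Gfap, a filament protein of glia, had 8 counts over the 6 libraries.

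Fibroblast genes showed the same low library. All 10 had a log2 fold change below 0 (median -0.45), with 0 called, and all 10 were lowest in MBZ_257. The summed level of the 10 was 13400 CPM in MBZ_257, against 25600 to 42720 CPM in the other libraries. Of the non-myelinating list 10 of 13 tested genes were lowest in MBZ_257, Scn7a included, as were 9 of 10 endothelial genes and 29.3% of all tested genes. In MBZ_259, where Scn7a was the second lowest, the fibroblast sum was 27890 CPM, between that of NC10 (26240) and that of MBZ_254 (31450). The largest parts of that sum were Col3a1 and Col1a2 (means 9711 and 8674 CPM). The single genes differed in MBZ_259. Dcn (384 CPM), Pi16 (97.5 CPM) and Clec3b (37.0 CPM) lay below all 3 controls, whereas Pdgfra (98.3 CPM), Col1a2 and Col3a1 lay among the controls. The part of fibroblast content in the Scn7a values was not tested. Skeletal muscle genes did not share the order of any of the 7: their summed level was 76.7 and 152 CPM in MBZ_254 and MBZ_257, 477 in NC10, 2554 and 3365 in NC9 and NC4, and 8004 in MBZ_259.

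**Figure D3:**
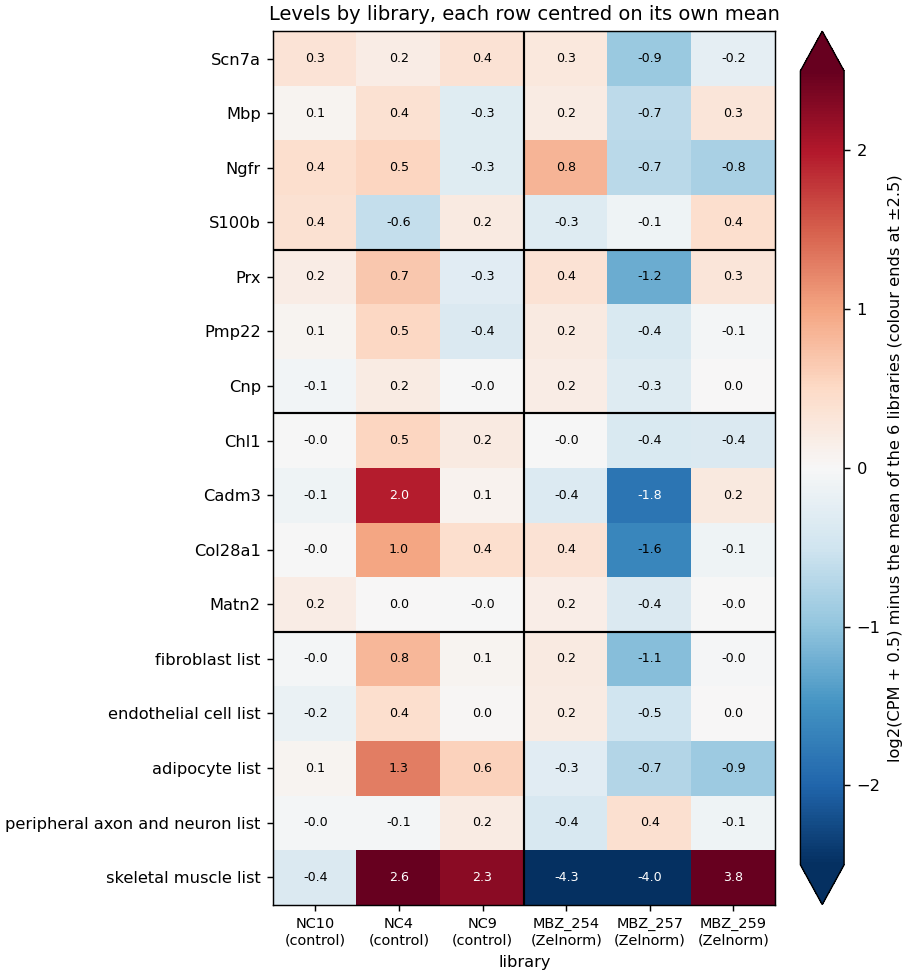
Each cell gives log2(CPM + 0.5) in 1 library minus the mean of the 6 libraries, for the 4 tested genes, 3 myelin genes and 4 non-myelinating Schwann cell genes, and the mean of such values over the tested genes of 5 marker lists. Prx, Pmp22 and Mbp are lowest in NC9 and MBZ_257, while Scn7a is high in NC9, and the fibroblast list is lowest in MBZ_257 (-1.06).

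Signals that pass between axon and Schwann cell lay evenly on both sides of 0. Of 17 listed genes 16 were tested, 8 higher and 8 lower, and 0 were called. Of the 16, 13 had more counts in the human table than in the mouse table. Erbb2 and Erbb3 (the latter named after its values were seen), the receptors through which neuregulin drives Schwann cell growth, stood at 82.4 and 35.3 CPM on average. They had 80059 and 28588 counts in the human table against 3679 and 1561 in the mouse table. Adam23, a receptor of LGI proteins, differed by -0.88 (SE 0.40) on the log2 scale, and Lgi4, the Schwann cell ligand of that family, by -0.33 (SE 0.26).

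Among the transcription factors of the Schwann cell lineage, Egr2, which drives myelination and is also induced in myeloid cells, averaged 10.3 ± 2.32 CPM over the controls and 17.4 ± 6.64 CPM over the Zelnorm tumours (SD, n = 3 each). All 3 Zelnorm tumours lay above all 3 controls, as in 2.52% of all tested genes, and the log2 fold change was 0.76 (SE 0.31; edgeR adjusted p = 1.00, unadjusted p = 0.0397). MBZ_259 was at 25.03 CPM, while MBZ_254 (13.21) and MBZ_257 (13.88) lay just above the control NC10 (12.35). Of the 14 tested genes of the myelin list, 5 lay higher, such as Gjb1 (0.82), and 9 lower, such as Prx (-0.27) and Mbp (-0.06). Of the 14 lineage genes 9 were tested, 6 higher and 3 lower (median 0.17), with 0 called, and 6 of the 9 had more human than mouse counts. Of the repair Schwann cell list, 6 of 11 genes were tested, 3 higher and 3 lower (median 0.12), with 0 called, and Olig1, Sox2, Shh, Artn and Gap43 were under the filter. Of the 6 tested, 5 had more human than mouse counts. Jun, the factor that drives the repair state and is active in many cells, had a log2 fold change of 0.48 (SE 0.29). It was at 216 CPM in MBZ_259 and at 97.0 to 112 CPM in the other libraries. The human table held 17093 counts of it against 5671 in the mouse table.

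The ligands and receptors of the neurotrophin and GDNF families lay lower in 7 of 9 tested genes of 18 listed (median -0.36), with 0 called. Ntrk2, the receptor of BDNF, differed by -1.36 (SE 0.65) on the log2 scale, with a control SD of 21.9 CPM around a mean of 24.0. Gfra1, the GDNF receptor subunit, was at 34.5 ± 7.63 and 26.7 ± 7.28 CPM, far above Gfra3. Pspn, a ligand of the GDNF family, had 0 mouse counts.

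Many genes of neurons and their axons were close to absent, and most of those tested had more human than mouse counts. Of 25 listed, Scn10a and Chat were among those with 0 counts, and Th, Tac1, Prph and Elavl4 had 1 or 2 counts over the 6 libraries. Of the 9 that were tested, 8 had more counts in the human table, among them Uchl1 with 131650 against 2567 and Tubb3 with 28095 against 11621. The exception was Stmn2, a tubulin-binding protein of neurons named after its values were seen, with 46 human and 133 mouse counts and a mean of 3.04 CPM. The list's 9 tested genes were 4 higher and 5 lower (median -0.03), with 0 called. Its summed level was highest in MBZ_257, at 547 CPM, the library in which Mbp was lowest. Tubb3 (394 CPM) and Uchl1 (99.9 CPM), both with more human than mouse counts, made up most of that sum. MBZ_257 held 32598390 human counts in all, beside 5798742 mouse counts, the smallest mouse total of the 6 libraries. The part of reads from human cells in this sum was not tested. Genes of the nerve sheath, made by perineurial cells and endoneurial fibroblasts, were 2 higher and 6 lower of 8 tested (median -0.17), with 0 called. Of these 8, 6 had more human than mouse counts.

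Reads of other cells that could hold these transcripts differed by cell type. Melanocytes also depend on Sox10, and their pigment genes Tyr, Tyrp1, Dct and Mlana had 0 to 3 counts per library. Slc24a5 of the same list had 0 to 4. Pmel, another pigment gene, had 3 to 8 per library and 32 in all, against 19 for Sox10. The human table held 499 counts of PMEL. Of the melanocyte list only Mitf, Kit and Ednrb passed the filter, each of which other cells express. The list's summed level ran from 150 to 183 CPM in control and from 141 to 242 CPM in Zelnorm tumours. The 10 genes of the lymphocyte list summed to 113 to 186 CPM in control and 138 to 274 CPM in Zelnorm tumours, the highest in MBZ_254, where Mbp was at 23.2 CPM. Most of that sum came from Thy1, at 86.4 to 178 CPM, and Cd4, at 17.7 to 51.2 CPM, which other cells express too. Cd3e, a subunit of the T cell receptor complex named after its values were seen, was at 5.59 CPM in MBZ_254 and at 0 to 0.519 CPM in the other libraries. Their part in the Mbp values was not tested. Keratinocyte and hair follicle genes summed to 18.2 to 37.6 CPM over the 6 libraries. Among the tested genes of these other lists, 13 of 15 adipocyte genes lay lower in Zelnorm (median log2 fold change -1.32), 9 of 10 endothelial genes lay lower (-0.15) and 12 of 15 skeletal muscle genes lay higher (0.44). Higher too were 4 of 4 lymphocyte genes (0.26), 2 of 3 melanocyte genes (0.13) and 2 of 2 keratinocyte genes (0.45). None of these lists held a called gene.

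**Figure D4:**
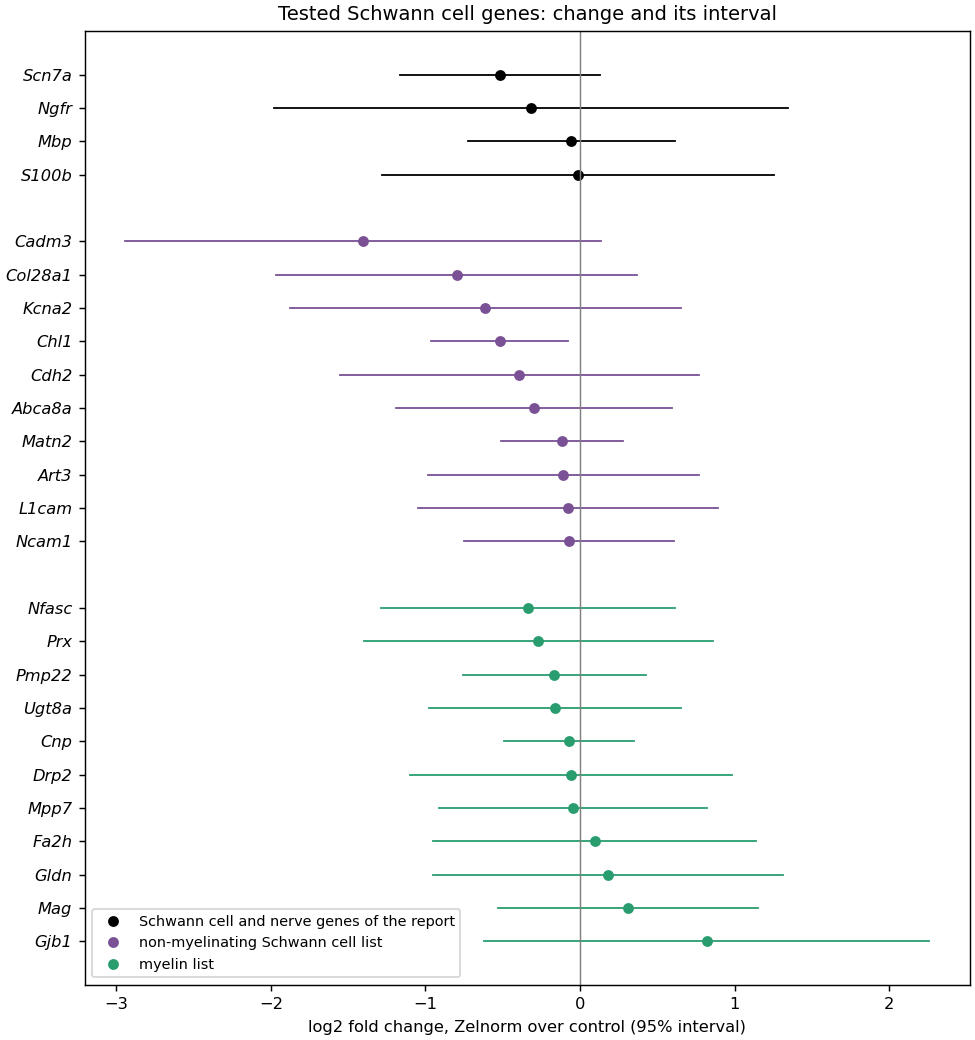
Log2 fold change of Zelnorm over control (horizontal axis) with its 95% interval for the 4 tested genes, the other tested genes of the non-myelinating list and 11 further tested genes of the myelin list. Apart from that of Chl1 (-0.52), each interval drawn includes 0, and that of Scn7a runs from -1.17 to 0.13.

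The tested mouse genes whose levels followed the mean of Scn7a, Mbp, Ngfr and S100b most closely over the 6 libraries included Armc5, Usp48, Usp6nl, Tspan4, Itgbl1, Ntn3 and Fam206a. Their Pearson correlation with that mean, given as a description over 6 libraries, was at least 0.985, the value of Fam206a, and none belongs to a Schwann cell list. The mean was lowest in MBZ_257 (-0.59 on the log2 scale, against -0.08 to 0.31 in the other libraries), and each of these genes was lowest there too. With 6 libraries that share this low one, 449 tested genes (3.11%) had a correlation of at least 0.9. The log2 fold changes of the named genes were -0.11 (Usp48) to -0.68 (Ntn3), with an edgeR adjusted p of 1.00 for each.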

How the data were processed

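RNA from 6 tumours was read in a mouse and a human table of estimated counts, which the authors deposited (26.5% of mouse values above 0 were not whole). HISAT2, StringTie, DESeq2, edgeR, GRCh38 and GRCm38 are named in the submitters' processing notes, without versions or roles. Columns carry the group prefix of the titles and a number no label repeats, so libraries were tied to groups only. The estimated counts were rounded for the tests. The 856 of 56392 mouse rows without a name (0.317% to 0.468% of counts) stayed out.

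Zelnorm was compared with control in R 4.3.3 by the quasi-likelihood test of edgeR 4.0.16 (two-sided), with low genes removed by filterByExpr and libraries scaled by TMM, over all mouse genes, with Benjamini-Hochberg adjustment and a threshold of 0.05. SEs derive from the F statistic. The script recovered most changed genes in simulated data with large changes and the same dispersion for every gene. That was a check of the code and does not measure power for the smaller changes given here. Levels are CPM of the tested total times the TMM factor, and lengths are joined exons of GENCODE M21, which held 99.8% of named IDs. Alternatives were RLE factors, library totals, DESeq2 1.42.0, limma-voom (limma 3.58.1), 2 other count filters and each library left out. The human table was used for counts of the same symbols only.

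The 7 genes, the 15 other lists and the tests were chosen with earlier results of these data known. Named genes are the 7, up to 4 of smallest p and the 2 highest in level of each list, and the 8 genes most like the tested members' mean (log2(CPM + 0.5), mean CPM of at least 1, human count below 10 times the mouse count). All genes of these lists given only as counts under the filter, and those marked so in the text, were named after their values were seen. Some listed genes that the rule would name are not reported here.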

Additional observations from a re-analysis of the deposited data

How the results depend on the processing

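The number of mouse genes called was 0 under 10 of 12 alternatives, 6 with DESeq2 and 2 without the count filter. None of the 4 tested genes was called under any alternative, with adjusted p from 0.75 to 1.00. Scn7a kept its negative sign in all 12, from -0.85 without MBZ_254 to -0.25 without MBZ_257. Its unadjusted edgeR p was under 0.05 only without the count filter (0.0472) and without MBZ_254 (0.0067). With 1 library left out, Mbp ran from -0.23 to 0.20, S100b from -0.39 to 0.22 and Ngfr from -1.58 to 0.0906 on the log2 scale, and S100b turned to 0.0568 with limma-voom. The number of the 4 genes higher in Zelnorm was 0, 1 with limma-voom, and 1 to 2 with a library left out. Groups that do not overlap were found in 0 of the 4 genes, and in 0 to 2 with a library left out (2 without MBZ_254, 1 without NC4), where fewer samples make overlap less likely. The share over all tested genes with a library left out is not given here, so these counts cannot be judged beside it. Differences of Sox10 and Cdh19 in mean CPM moved by less than 1 SD under each alternative run for them. Of the 15 lists, only the counts of the myelin and non-myelinating lists were recomputed under these alternatives, a choice made after their values were seen. No paired analysis was possible because the columns carry numbers that match no replicate number of the labels. Depth limits Sox10, Cdh19 and Gfra3, with 19, 30 and 2 mouse counts in all.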
